A study of Saccharomyces cerevisiae with 3 samples.

Results

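Transcript levels in yeast cells lacking both *MET15* and *RTG3* were compared with those in wild-type cells, with 1 Affymetrix Yeast Genome 2.0 array per genotype and total RNA from cultures on Day 3. For each *S. cerevisiae* probe set the linear signal in *rtg3Δ met15Δ* cells was divided by that in wild-type cells, and the log2 ratio was kept where at least 1 of the 2 arrays had a signal of 500 or more. This rule kept 4762 of the 5498 *S. cerevisiae* probe sets, out of 10928 on the array, and they stand for 4724 of 5449 genes. The other 736 *S. cerevisiae* probe sets lay under 500 on both arrays. The array of *met15Δ* cells, the only other one, is given beside the pair as a value. Both comparisons with wild-type use the same wild-type array, so what they have in common is not counted. All 3 strains were haploid, came from the BY4741/BY4742 background and carry *his3Δ1*, *leu2Δ0* and *ura3Δ0*. *MET15* was removed as *met15Δ0*, and the *RTG3* deletion carries the *KanMX* drug resistance cassette. Cells were pregrown in liquid synthetic complete (SC) medium, diluted into fresh SC medium and harvested on Day 3. Each array is 1 culture of 1 strain, so no error, p-value or test can be given and the number of arrays limits the precision. Cells lacking *RTG3* alone were not among the 3 arrays, so the parts of the 2 deletions cannot be told apart.

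*MET15* encodes the sulfhydrylase that joins sulfide to a carbon backbone to make homocysteine, the precursor of methionine. Rtg3 pairs with Rtg1, and the pair enters the nucleus when mitochondria fail or nitrogen sources are poor. There it turns on the retrograde response, a set of genes that keeps citrate and alpha-ketoglutarate supplied for amino acid synthesis, of which *CIT2* and *DLD3* are the usual reporters. Cultures in glucose medium pass the diauxic shift at about this age, when cells stop fermenting glucose and start to respire ethanol and acetate.

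The signals of both deleted genes matched the labels. *MET15*, which the annotation calls *MET17*, had a signal of 2874 on the wild-type array, 85.0 on the *met15Δ* array and 89.9 on the *rtg3Δ met15Δ* array. *RTG3* had a signal of 2703 on the wild-type array, 2215 on the *met15Δ* array and 28.7 on the *rtg3Δ met15Δ* array. The array also holds 1746 probe sets of another yeast species, whose highest signals were 273 in wild-type, 273 in *met15Δ* and 289 in *rtg3Δ met15Δ* cells. A signal under that value was treated as background, and a fold against it is given as "at least", taken against that highest signal. Where 3 signals stand together without names, they are in the order wild-type, *met15Δ* and *rtg3Δ met15Δ*, and a fold compares *rtg3Δ met15Δ* with wild-type. *LEU2* (40.6, 40.6 and 40.6) and *URA3* (30.8, 30.8 and 30.8) were at background on all 3 arrays. *HIS3* was not, at 18655 on the wild-type array, 9662 on the *met15Δ* array and 4271 on the *rtg3Δ met15Δ* array, although all strains carry *his3Δ1*, and whether its probes lie outside the part removed in that allele is not given in the sources used here. *LYS2* was above background on each array, at 6684 on the wild-type array, 10058 on the *met15Δ* array and 2331 on the *rtg3Δ met15Δ* array.

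The cells also differed in mating-type transcripts, which touches every comparison with wild-type. *HMRA1* has the same sequence as the a gene at MAT and had a signal of 47.1 on the wild-type array, 4073 on the *met15Δ* array and 5016 on the *rtg3Δ met15Δ* array. *HMLALPHA1* has the same sequence as the alpha gene at MAT and had a signal of 977 on the wild-type array, 71.5 on the *met15Δ* array and 59.7 on the *rtg3Δ met15Δ* array. The wild-type array thus had the alpha transcript and an a signal at background, and both mutant arrays had the reverse. The mating type of each strain is not given in the sources used here, so mating type and genotype cannot be told apart in any difference from wild-type. Without the genes of the a-specific, alpha-specific, haploid-specific and pheromone response lists, a choice made after seeing the data, 972 probe sets were higher by 2-fold or more and 903 lower by 2-fold or more, against 988 and 909 with them. That choice left 4728 of the 4762 probe sets, so these counts could move only little. They do not measure the part of mating type in the other genes.

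The signals were used as deposited, and the arrays differed little in the middle of their range. Over *S. cerevisiae* probe sets the wild-type array had a median of 1504 and the *rtg3Δ met15Δ* array one of 1457. The bacterial controls (bioB, bioC and bioD, 21 probe sets) differed more, with geometric means of 1596 and 1875. The medians over all probe sets on the array differed most, at 144 in wild-type and 203 in *rtg3Δ met15Δ* cells. A signal from a whole culture does not tell fewer cells with a transcript apart from less of that transcript per cell.

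The *rtg3Δ met15Δ* cells differed widely from wild-type. Gluconeogenesis, storage carbohydrate, phospholipid methylation, antioxidant and a-specific genes stood higher than in wild-type cells. Genes of branched-chain, lysine and aromatic amino acid synthesis, ribosome biogenesis, aminoacyl-tRNA synthetases and the methylcitrate cycle stood lower, as did several hexose transporter genes. In *rtg3Δ met15Δ* cells 988 of the 4762 probe sets (20.7%) were higher by 2-fold or more than in wild-type cells, 909 (19.1%) were lower by 2-fold or more and 2865 (60.2%) lay within 2-fold. Counted by gene, 980 of 4724 were higher (20.7%) and 902 lower (19.1%). These shares are the background for the counts in each gene list below. The log2 ratios had a median of 0.03, quartiles of -0.76 and 0.83 and an SD over probe sets of 1.27. Over the same probe sets the SD of *met15Δ* over wild-type was 1.03. The ratios reached from -7.69 to 6.73, and 40 probe sets were higher by 8-fold or more and 71 lower by 8-fold or more. Of the 4762 probe sets, 4047 reached 500 on both arrays, 249 in wild-type cells only and 466 in *rtg3Δ met15Δ* cells only. Dim probe sets leaned upward: among the 1191 dimmest by mean signal (181 to 928) the median was 0.33, with 369 higher and 173 lower, and among the 1191 brightest it was -0.10, with 204 higher and 239 lower. The split between higher and lower depends on the scaling. Of the probe sets at least 2-fold apart, 52.1% were higher with the deposited signals, 26.3% after each array was divided by the median of all its probe sets (539 higher and 1511 lower) and 38.6% after division by the bacterial controls (741 and 1180). These scalings moved the median of all ratios by -0.50 and -0.23. Both shift every gene alike. Where a gene list's median of at least 0.50 came under 0.50 after the division by the median of all probe sets, that second value stands beside it, marked as rescaled.

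**Figure D1:**
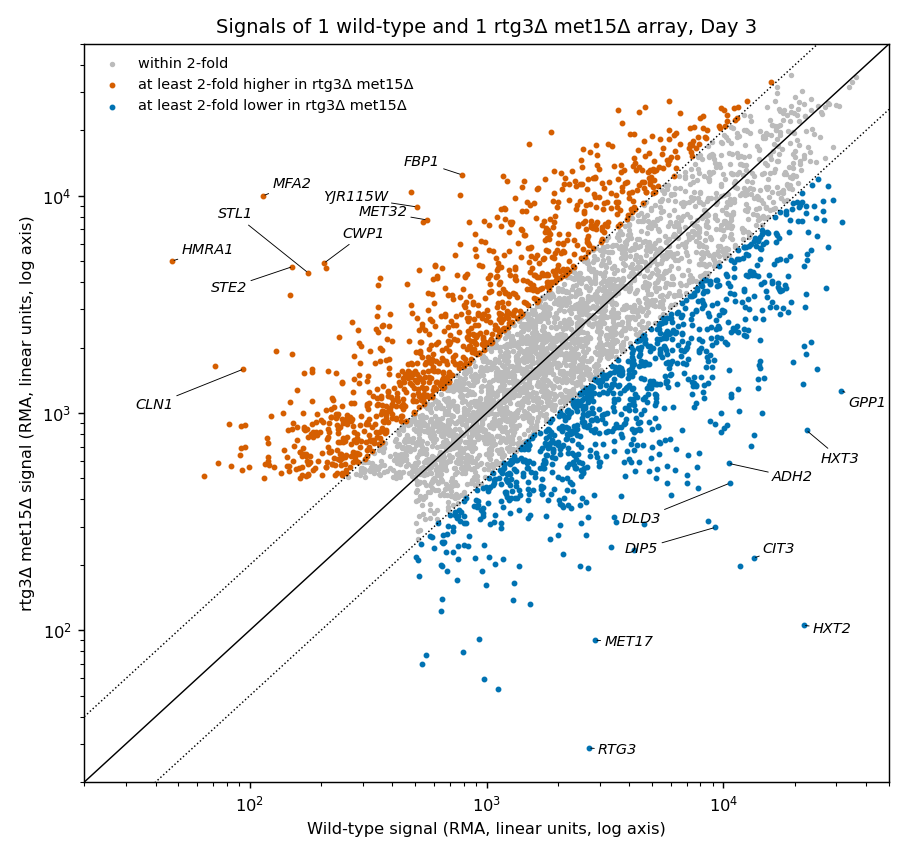
Signal of each *S. cerevisiae* gene that passed the filter in wild-type (x axis, RMA linear units, log axis) and *rtg3Δ met15Δ* cells (y axis, same units), 1 point per gene and 1 array per genotype. Orange points are at least 2-fold higher in *rtg3Δ met15Δ* cells (980), blue points at least 2-fold lower (902) and grey points within 2-fold. The solid line marks equal signals and the dotted lines 2-fold differences. *HXT2*, *CIT3* and *RTG3* lie lowest under the line and *HMRA1*, *MFA2* and *STE2* highest above it.

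The 15 highest genes by log2 ratio held 6 a-specific genes, given with the mating-type genes, and 9 others with varied roles. *CWP1*, which encodes a cell wall mannoprotein, had a signal of 206 on the wild-type array, 411 on the *met15Δ* array and 4903 on the *rtg3Δ met15Δ* array (at least 17.9-fold higher). *PRY2*, encoding a secreted sterol-binding protein, had 209, 419 and 4657 (at least 17-fold higher) and *TOS6*, encoding a predicted cell wall protein, 129, 177 and 1934 (at least 7.08-fold higher). In all of these the *met15Δ* signal was far under that of *rtg3Δ met15Δ* cells. The uncharacterized gene *YJR115W* had the same shape, at 506, 799 and 8893 (17.6-fold higher), as did *CLN1*, the gene of a G1 cyclin, at 94.0, 168 and 1593 (at least 5.83-fold higher). *STL1*, which encodes a glycerol and proton symporter, was intermediate in *met15Δ* cells, at 176, 1034 and 4429 (at least 16.2-fold higher). *FBP1*, encoding the fructose bisphosphatase of gluconeogenesis, had 785, 3443 and 12505 (15.9-fold higher), *ASH1*, encoding a repressor that acts in daughter cells, 539, 1756 and 7582 (14.1-fold higher), and *MET32*, encoding a zinc finger activator of sulfur genes, 559.5, 2193 and 7746 (13.8-fold higher).

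The 15 lowest genes held both deleted genes and were led by transport and mitochondrial genes. *HXT2*, a high-affinity glucose transporter gene, had a signal of 21823 on the wild-type array, 584 on the *met15Δ* array and 105 on the *rtg3Δ met15Δ* array (at least 75.4-fold lower). *CIT3*, encoding the mitochondrial citrate and methylcitrate synthase, had 13437, 11232 and 215 (at least 46.5-fold lower). In *met15Δ* cells *HXT2* was far under wild-type and *CIT3* near it. Like *HXT2*, the uncharacterized gene *YMR244W* was low in both mutants, at 11696, 521 and 198 (at least 40.4-fold lower), and so were *AIR1*, encoding a zinc knuckle protein of nuclear RNA surveillance, at 8637, 799.8 and 319 (27.1-fold lower), the spore wall assembly gene *LDS2* at 4173, 149 and 235 (at least 14.4-fold lower) and the pheromone-regulated gene *PRM7* at 7837, 565 and 454 (17.3-fold lower). Like *CIT3*, *DIP5*, encoding the permease for acidic amino acids, was low in *rtg3Δ met15Δ* cells alone, at 9242, 6123 and 298 (31-fold lower), as were *GPP1*, encoding a glycerol phosphate phosphatase, at 31449, 19794 and 1269 (24.8-fold lower) and *ADH2*, encoding the alcohol dehydrogenase that oxidizes ethanol, at 10507, 13192 and 587 (17.9-fold lower). The mitochondrial carrier gene *YMC2* was stepwise lower, at 13063, 3343 and 702 (18.6-fold lower). *HXT15*, whose probe set can match other transporter genes, had 1113, 80.3 and 53.5 (at least 3.85-fold lower). Near the signal filter itself, the dimmest genes kept were *YBR138C* (114 and 501 in wild-type and *rtg3Δ met15Δ* cells) and *SRB8* (501 and 218), and the brightest left out were *MSD1* (209 and 499.7) and *ARP7* (499 and 499).

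The genes beside the deletions were examined because a deletion can reach its neighbours. *ACO1*, which encodes aconitase and lies next to *MET15*, was high in both strains that lack *MET15*, at 6311 on the wild-type array, 20113 on the *met15Δ* array and 19399.6 on the *rtg3Δ met15Δ* array (3.07-fold higher). *STT4*, the gene after *ACO1*, encodes a phosphatidylinositol kinase and had 1399, 2700.0 and 2228. *HRI1*, on the other side, had 705, 769.6 and 705. The part of the neighbouring deletion in the *ACO1* signal was not tested. Around *RTG3*, *PKC1*, the protein kinase C gene, had 3364, 3478 and 2924, *SEA4* had 759.6, 1508 and 594, *SFT2* had 3256, 4022 and 3538 and *ECM21* had 9929, 12365 and 6988, so all 4 lay within 2-fold of wild-type in *rtg3Δ met15Δ* cells. Medians by chromosome ran from -0.06 for chromosome XV (439 genes) to 0.14 for chromosome V (229 genes).

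The a-specific genes, most of which encode what an a cell needs to be found by and to sense an alpha cell, were all higher in *rtg3Δ met15Δ* than in wild-type cells. Each was also higher than in *met15Δ* cells. The list includes *HMRA1* of the mating locus, whose signals were already used above to read the a transcript. All 8 on the list passed the filter and were at least 2-fold higher, and their median ratio on the log2 scale was 4.54 (2.91 for *met15Δ* over wild-type, 0.04 over all genes that passed). For 7 of them the *rtg3Δ met15Δ* signal reached 500 and the wild-type signal did not, so that passing the filter already required a difference. *MFA1* and *MFA2* encode the a-factor pheromone and had 478, 4439 and 10448 (21.8-fold higher) and 114, 4089 and 10012 (at least 36.6-fold higher). *STE2*, the receptor gene for alpha-factor, had 151, 917 and 4718 (at least 17.3-fold higher). All 3 signals were lowest in wild-type and highest in *rtg3Δ met15Δ* cells. *BAR1*, encoding the protease that destroys alpha-factor, had 71.1, 392 and 1646 (at least 6.02-fold higher) and *AGA2*, encoding the a-agglutinin subunit, 148, 1899 and 3478 (at least 12.7-fold higher). *ASG7* had 95.5, 342 and 694 (at least 2.54-fold higher), and *STE6*, the a-factor exporter gene, had the smallest difference, at 892, 1075 and 2111 (2.37-fold higher).

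The alpha-specific genes did not form a mirror image. Of 6 on the array, 5 passed, with 1 higher, 2 lower and a median of -0.91. *MF(ALPHA)1*, the main alpha-factor gene, had 344 on the wild-type array, 101 on the *met15Δ* array and 2807 on the *rtg3Δ met15Δ* array, which was 8.15-fold higher than in wild-type in the same cells that had the most a-factor transcript. *MF(ALPHA)2*, which was left out by the filter, had 250.4, 129 and 129. *AFB1*, encoding a blocker of a-factor, had 3924, 306 and 667 (5.89-fold lower) and *STE3*, the a-factor receptor gene, 2157, 454 and 1146 (1.88-fold lower). Both were lower in each mutant than in wild-type. *SAG1*, encoding alpha-agglutinin, had 1007, 1232 and 1744 (1.73-fold higher). Of the 11 haploid-specific genes that passed, 5 were higher and 2 lower (median 0.94, 0.44 rescaled and 0.20 over those with a signal of at least 500 on both arrays), among them *FAR1*, a cyclin kinase inhibitor gene (269, 705 and 1111), *STE4* and *GPA1*, genes of G protein subunits (710.4, 1834 and 2645 and 556, 1803 and 1723), and *FUS3*, encoding the mating kinase, which was 4.46-fold lower (5852, 1542 and 1313). *HO*, the mating-type switching endonuclease gene, had 203, 176 and 906 (at least 3.32-fold higher). The 10 pheromone response genes that passed had 2 higher and 2 lower and a median of 0.71 (0.22 rescaled), which was -0.025 over those with a signal of at least 500 on both arrays. The higher members were *FUS1* (291, 185 and 696) and *FUS2* (241, 659.8 and 864), genes of cell fusion, and the lower ones *PRM10* (2311, 124 and 595) and *PRM5* (5082, 3478 and 1356).

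**Figure D2:**
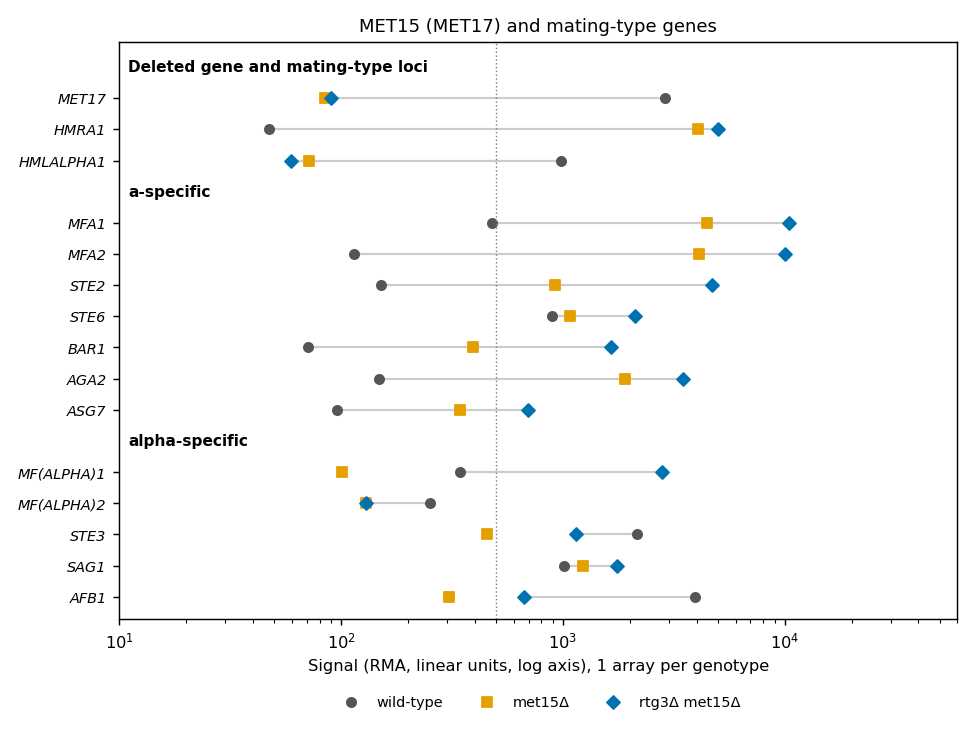
Signals (x axis, RMA linear units, log axis) of the deleted gene *MET17* and of mating-type genes in wild-type (grey circles), *met15Δ* (orange squares) and *rtg3Δ met15Δ* cells (blue diamonds), 1 array per genotype. The grey bar joins wild-type and *rtg3Δ met15Δ*, and the dotted line marks the filter of 500. In each a-specific gene the order is wild-type, *met15Δ*, *rtg3Δ met15Δ* from low to high, while *MF(ALPHA)1* is lowest in *met15Δ* and highest in *rtg3Δ met15Δ* cells.

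The 8 targets of the retrograde response differed in direction without *RTG3*. Against wild-type, *CIT2*, *DLD3* and *PDH1* were lower by 2-fold or more, *IDH1* and *ACO1* higher by 2-fold or more and the other 3 within 2-fold, with a median of -0.02 (0.11 in *met15Δ* over wild-type). *CIT2*, encoding peroxisomal citrate synthase, had a signal of 27727 on the wild-type array, 27483 on the *met15Δ* array and 5793 on the *rtg3Δ met15Δ* array (4.79-fold lower). *DLD3*, encoding a cytoplasmic lactate dehydrogenase, had 10629, 5905 and 475 (22.4-fold lower). *PDH1*, encoding the methylcitrate dehydratase of mitochondria, had 9240.3, 10916 and 888 (10.4-fold lower). For *CIT2* and *PDH1* the 2 cultures with *RTG3* had nearly equal signals and the culture without it stood alone. *IDH1*, encoding a subunit of isocitrate dehydrogenase, was the opposite case, at 2489, 4764 and 9431 (3.79-fold higher), and *ACO1*, given above, was as high as in *met15Δ* cells. *CIT1*, the mitochondrial citrate synthase gene, had 17391, 23009 and 21194, *IDH2* 7721, 7119.6 and 11780.2 and *PYC1*, encoding pyruvate carboxylase, 24227, 22952 and 19333. These 3 lay within 2-fold of wild-type.

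The methylcitrate cycle disposes of propionyl-CoA, and its 3 genes had a median of -3.38 in *rtg3Δ met15Δ* cells and -0.26 in *met15Δ* cells. Beside *CIT3* and *PDH1*, *ICL2*, encoding the methylisocitrate lyase, had 4413 on the wild-type array, 2915 on the *met15Δ* array and 2562 on the *rtg3Δ met15Δ* array (1.72-fold lower). The 3 citrate synthase genes covered a wide range, with log2 ratios of 0.29 for *CIT1*, -2.26 for *CIT2* and -5.97 for *CIT3*. Among the 8 regulators only *RTG3* itself and *RTG1*, which encodes its partner, were at least 2-fold lower and none was higher. *RTG1* had 1028, 261 and 451 (2.28-fold lower), with its lowest signal in *met15Δ* cells. *RTG2*, encoding the activator of the pathway, had 3711, 2085 and 4053, and *MKS1*, encoding its inhibitor, 902, 902 and 893. *LST8*, encoding a TOR complex subunit that restrains the pathway, had 2298, 3019 and 4181. *BMH1* and *BMH2*, genes of the 14-3-3 proteins that bind Mks1, had 13182, 13139.6 and 11528 and 4470.3, 8395 and 7646, and *GRR1*, a ubiquitin ligase gene, had 1637, 2452 and 1724.

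**Figure D3:**
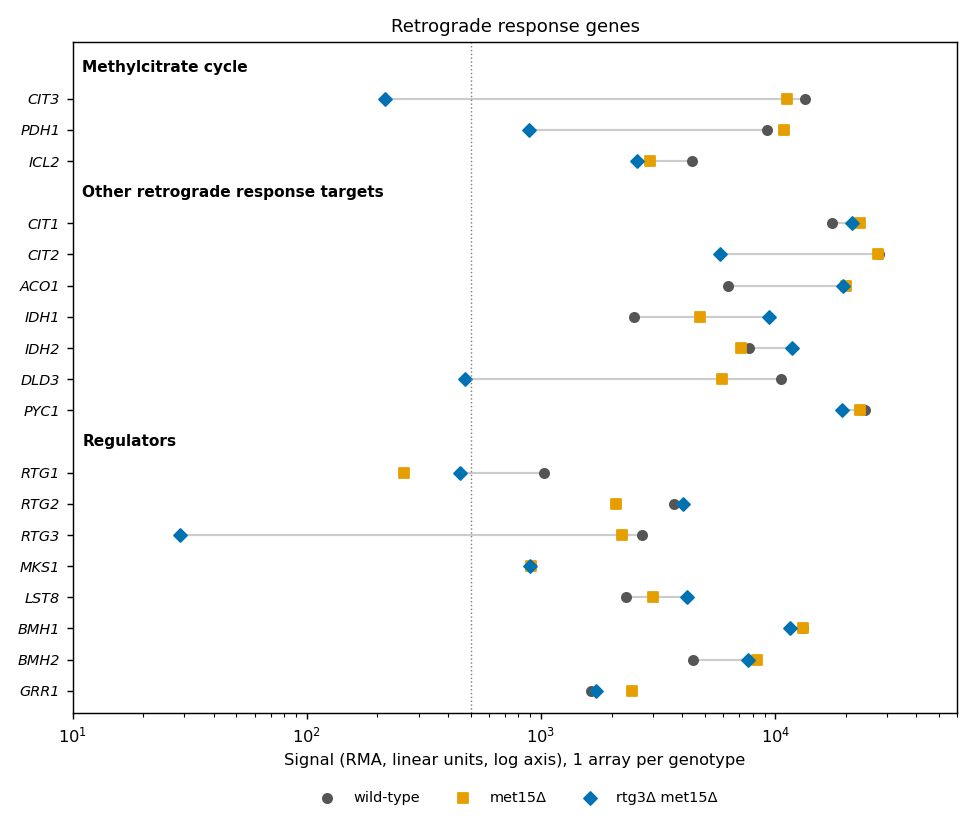
Signals (x axis, RMA linear units, log axis) of methylcitrate cycle genes, other retrograde response targets and regulators, 1 array per genotype, with symbols as grey circles for wild-type, orange squares for *met15Δ* and blue diamonds for *rtg3Δ met15Δ* cells. The dotted line marks the filter of 500. *CIT3*, *PDH1*, *CIT2* and *DLD3* have their blue diamonds alone on the left, and *IDH1* and *ACO1* have theirs on the right of wild-type.

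Several hexose transport genes were low in the cells lacking both genes, while most regulators of glucose repression lay within 2-fold of wild-type. Hexose transporters carry sugar into the cell, Snf3 and Rgt2 sense it, and Std1 and Mth1 relay the signal. Of 19 such genes on the array 12 passed, 8 of them at least 2-fold lower and 1 higher (median -1.69, and -1.97 in *met15Δ* over wild-type), while 7 lay under the filter and 4 passed through wild-type only. The median was -0.74 over those with a signal of at least 500 on both arrays and -0.28 over all 19 without the filter. *HXT3*, encoding a low-affinity transporter, had a signal of 22439 on the wild-type array, 924 on the *met15Δ* array and 832 on the *rtg3Δ met15Δ* array (27-fold lower). *HXT4* had 15668, 1406 and 3083 (5.08-fold lower) and *HXT1* 832, 148 and 245 (at least 2.87-fold lower). *STD1*, which encodes one of those relays, had 2216, 415 and 376 (5.90-fold lower). In these genes the signals of the 2 mutants lay much nearer to each other than to wild-type. *HXT7* and *HXT5* lay within 2-fold of wild-type, at 20751, 19475 and 17110 and at 11452, 20532 and 12550. *RGT1* was the higher gene, at 3219, 4332 and 9390. Of 22 regulators of glucose repression and carbon source use, 18 lay within 2-fold, 3 were lower and 1 higher (median 0.10). *MIG1*, encoding the main glucose repressor, had 5766, 1524 and 478 (12.1-fold lower) and *MIG2*, a related repressor gene, 1155, 87.8 and 296 (3.91-fold lower). *RDS2*, encoding an activator of gluconeogenesis, was the higher one, at 1415, 1981 and 2845 (2.01-fold higher).

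Glycolytic genes went in both directions, as pairs of isoenzymes did. Of 19, 4 were higher and 4 lower (median -0.07), a split near that of all genes that passed (20.7% higher and 19.1% lower). *HXK2*, the hexokinase gene with a role in glucose repression, had 17651 on the wild-type array, 4055 on the *met15Δ* array and 3678 on the *rtg3Δ met15Δ* array (4.80-fold lower). *PFK27*, encoding an enzyme that makes the activator of phosphofructokinase, had 6217, 590.4 and 546 (11.4-fold lower). *FBP26*, encoding the enzyme that removes that activator, had 3701, 4098 and 12884 (3.48-fold higher). *PFK27* and *FBP26* thus lay in opposite directions. *PFK26*, also on this list and encoding another enzyme that makes the activator, lay within 2-fold, at 2936, 5892 and 3655. *GLK1*, encoding glucokinase, had 8471, 12376 and 18471 (2.18-fold higher). The enolase genes differed as well, with *ENO1* at 9749, 28946 and 25303 (2.60-fold higher) and *ENO2* at 13111, 23315 and 4407 (2.97-fold lower).

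The ethanol and acetate genes included several of the lowest of all, with *ADH2* given above. Of 12 pyruvate decarboxylase and alcohol dehydrogenase genes that passed, 4 were lower and 2 higher (median -0.32). *PDC5*, a pyruvate decarboxylase gene, had 10781 on the wild-type array, 1571 on the *met15Δ* array and 1187 on the *rtg3Δ met15Δ* array (9.08-fold lower), and *PDC2*, encoding a regulator of these genes, 5154, 2159 and 1089 (4.73-fold lower). *PDC6*, the minor pyruvate decarboxylase gene, had 248, 13844 and 896, so its *rtg3Δ met15Δ* signal was at least 3.28-fold higher than wild-type and far under *met15Δ*. Of 19 genes of aldehyde dehydrogenases and acetate use, 5 were lower and 3 higher (median -0.44). *ATO2*, a putative ammonium exporter gene, and *ADY2*, an acetate transporter gene, had 27189, 17202 and 3775 (7.20-fold lower) and 4574, 11477 and 709 (6.45-fold lower). *ALD5*, a mitochondrial aldehyde dehydrogenase gene, had 18735, 12730.3 and 2925 (6.41-fold lower), whereas the stress-induced cytoplasmic *ALD2* and *ALD3* had 1599, 5367 and 5172 (3.24-fold higher) and 578, 1952 and 2721 (4.70-fold higher). *ACS2*, encoding the nuclear and cytoplasmic acetyl-CoA synthetase, had 1595, 3978 and 4339 (2.72-fold higher).

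Gluconeogenesis genes stood higher, tricarboxylic acid cycle genes leaned higher and carnitine shuttle genes stood lower. Of 14 glyoxylate cycle, gluconeogenesis and carnitine genes, 8 were higher and 4 lower (median 1.46, and 1.14 in *met15Δ* over wild-type). *PCK1*, encoding phosphoenolpyruvate carboxykinase, had a signal of 4684 on the wild-type array, 18071 on the *met15Δ* array and 25559 on the *rtg3Δ met15Δ* array (5.46-fold higher). *SFC1*, encoding the carrier that exchanges succinate for fumarate, had 1350.3, 4713 and 6060.4 (4.49-fold higher), and *AGX1*, encoding the aminotransferase that makes glycine from glyoxylate, 2236, 8443 and 11343 (5.07-fold higher). Against these, *YAT2*, a carnitine acetyltransferase gene, had 14171, 21479.6 and 1659 (8.54-fold lower) and *CRC1*, the mitochondrial carnitine carrier gene, 5708, 12706 and 1379 (4.14-fold lower). Both carnitine genes were above wild-type in *met15Δ* cells and under it in *rtg3Δ met15Δ* cells.

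Of 16 tricarboxylic acid cycle genes, 7 were higher and none lower (median 0.96, 0.47 rescaled, and 0.81 in *met15Δ* over wild-type), and 15 had a ratio above 0. *LSC2*, encoding a succinyl-CoA ligase subunit, had 1949 on the wild-type array, 8187 on the *met15Δ* array and 8052 on the *rtg3Δ met15Δ* array (4.13-fold higher), *MDH1*, encoding mitochondrial malate dehydrogenase, 7509, 18178 and 20813 (2.77-fold higher) and *KGD1*, encoding a ketoglutarate dehydrogenase subunit, 7842, 11377 and 18602 (2.37-fold higher). Of 32 respiratory chain and ATP synthase genes, 7 were higher, near the share of all genes that passed (20.7%), and none lower (19.1% of all genes). Their median was 0.71 (0.22 rescaled), and 30 had a ratio above 0 with the deposited signals. *COX4*, a cytochrome oxidase subunit gene, had 6154, 12917 and 19108 (3.10-fold higher). The 2 cytochrome c genes were both higher: *CYC1* at 2728, 5314 and 15989.9 (5.86-fold higher) and *CYC7*, the isoform of low oxygen, at 5866, 2403 and 27431 (4.68-fold higher). *DLD2*, the mitochondrial relative of *DLD3*, was low in the double mutant, at 12479.9, 5268 and 2256 (5.53-fold lower). *SHH3* and *SHH4*, homologues of succinate dehydrogenase membrane subunits, peaked in *met15Δ* cells and remained above wild-type, at 925, 15796 and 4811 (5.20-fold higher) and 314, 5772 and 1478 (4.70-fold higher). *SDH6*, encoding an assembly factor of that enzyme, was highest in *rtg3Δ met15Δ* cells, at 1590.4, 2704 and 9275 (5.83-fold higher).

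Storage carbohydrate genes were higher as a group. Glycogen and trehalose are laid down as cells leave fermentation. Of 10 glycogen genes that passed, 9 were higher and none lower (median 1.85, and 0.92 in *met15Δ* over wild-type), and of 10 trehalose genes 8 were higher and none lower (median 1.5, and 1.11). *GPH1*, encoding glycogen phosphorylase, had 1417 on the wild-type array, 8122 on the *met15Δ* array and 10938 on the *rtg3Δ met15Δ* array (7.72-fold higher). *GSY2*, encoding glycogen synthase, had 1520.1, 4189 and 9040.3 (5.95-fold higher) and *GDB1*, encoding the debranching enzyme, 1479, 4745 and 9373 (6.34-fold higher). Genes of both synthesis and breakdown were thus among the higher ones. *TSL1*, encoding a subunit of trehalose synthase, had 2524, 9967 and 13594 (5.39-fold higher), and *UGP1*, encoding the enzyme that makes the sugar donor of both, 2806, 3757 and 12073 (4.30-fold higher).

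Glycerol genes differed between close relatives, which were set side by side after their values had been seen. *GPD1* and *GPD2* encode the 2 glycerol phosphate dehydrogenases and had 1196, 11237 and 8697 (7.27-fold higher) and 2637, 322 and 274 (at least 9.12-fold lower). Both mutants had the same arrangement of this pair. *GPP1*, given above, and *GPP2*, its paralog, were both lower, with *GPP2* at 9435, 4166 and 2235 (4.22-fold lower). *GUT1*, encoding the glycerol kinase of glycerol use, was higher, at 2471, 4749 and 11311 (4.58-fold higher). Of the 11 glycerol genes that passed, 3 were higher and 4 lower (median -0.65).

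**Figure D4:**
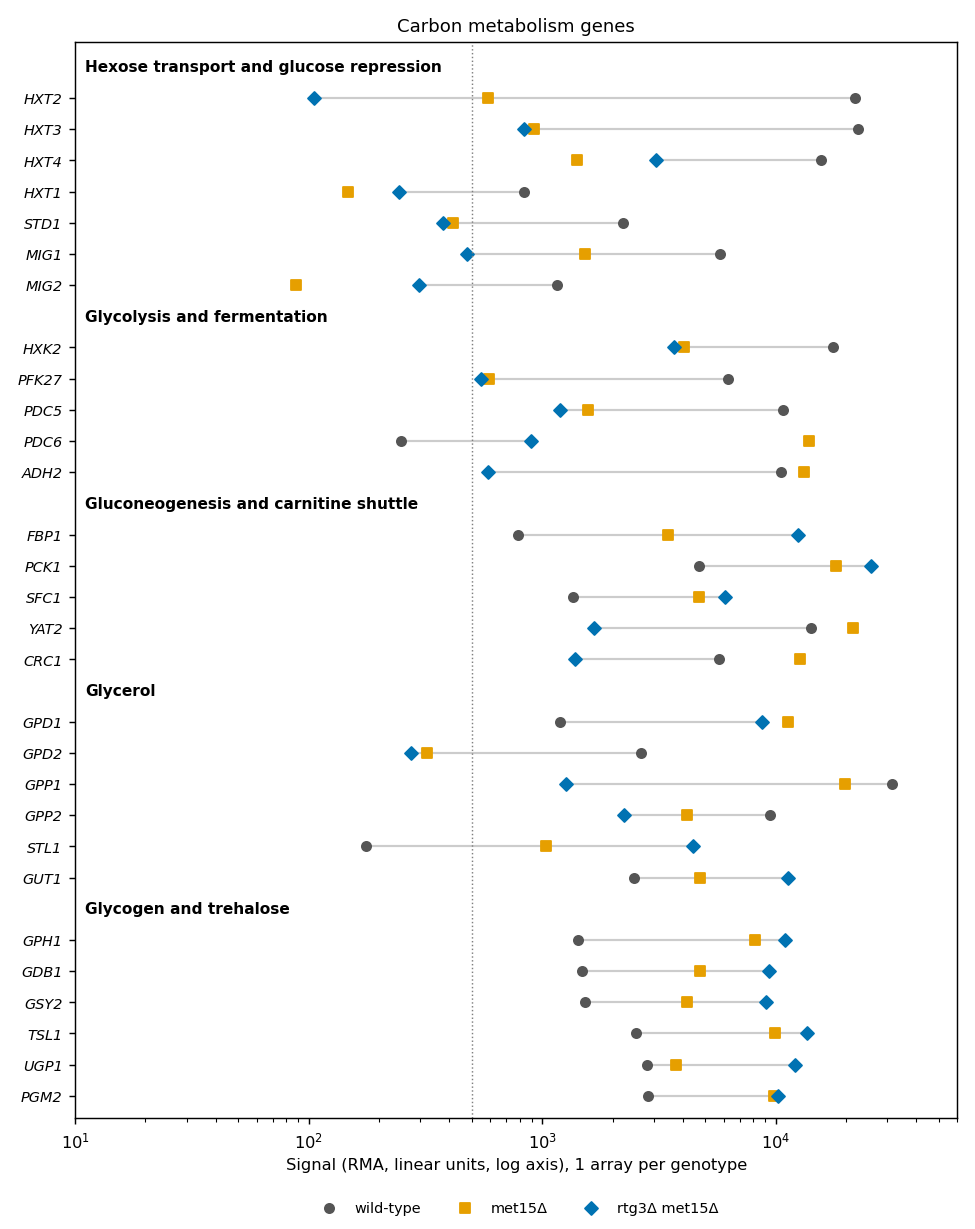
Signals (x axis, RMA linear units, log axis) of carbon metabolism genes in wild-type (grey circles), *met15Δ* (orange squares) and *rtg3Δ met15Δ* cells (blue diamonds), 1 array per genotype, grouped by role. The dotted line marks the filter of 500. For the hexose transport genes shown, *HXK2* and *PFK27* both mutants lie left of wild-type. For *PCK1* and the storage genes both lie right of wild-type, and for *ADH2*, *YAT2*, *CRC1* and *GPP1* the blue diamond lies far left of both other symbols.

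Amino acid synthesis was lower across several pathways, and most of these lists had a median near 0 in *met15Δ* over wild-type. None of the 11 genes of branched-chain amino acid synthesis was higher and 9 were at least 2-fold lower (median -1.78, and -0.30 in *met15Δ* over wild-type). *BAT1*, encoding the mitochondrial branched-chain aminotransferase, had a signal of 21785 on the wild-type array, 12018 on the *met15Δ* array and 2026 on the *rtg3Δ met15Δ* array (10.8-fold lower). *LEU1*, encoding isopropylmalate isomerase, had 22368, 13001 and 3543 (6.31-fold lower) and *ILV1*, encoding threonine deaminase, 11567, 7095 and 2366 (4.89-fold lower). *LEU2* itself is deleted in all strains. Lysine synthesis, which starts from alpha-ketoglutarate, had 8 of 9 genes lower and none higher (median -1.52, and 0.19 in *met15Δ* over wild-type). *LYS1*, encoding the last enzyme of the pathway, had 8265, 7216 and 1353 (6.11-fold lower), *LYS21*, encoding homocitrate synthase, 9622, 9123 and 2463 (3.91-fold lower) and *LYS12*, encoding homoisocitrate dehydrogenase, 9525, 14950.2 and 2513 (3.79-fold lower). Of 13 genes of aromatic amino acid synthesis and the Ehrlich pathway that passed, 10 were lower and 1 higher (median -1.40), with *ARO10*, encoding the decarboxylase of that pathway, at 4976, 10482 and 846 (5.88-fold lower) and *TRP3*, a tryptophan synthesis gene, at 3976, 3413 and 1088 (3.65-fold lower). Of 13 arginine genes, 1 was lower and none higher (median -0.31). That gene was *ARG80*, encoding a regulator, at 2493, 571 and 312 (8.0-fold lower).

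Genes of one-carbon supply were also mostly lower, and those of nitrogen entry went in both directions, with more lower than higher. Of 20 genes of ammonium, glutamate and proline metabolism, 7 were lower and 4 higher (median -0.79). *GLT1*, encoding glutamate synthase, had 17254 on the wild-type array, 12094 on the *met15Δ* array and 3639 on the *rtg3Δ met15Δ* array (4.74-fold lower), *ASN2*, encoding an asparagine synthetase, 13574, 6036 and 2737 (4.96-fold lower) and *PRO2*, a proline synthesis gene, 12332, 7453 and 3085 (4.0-fold lower). *GAD1* and *UGA2*, genes that take glutamate to succinate through the GABA shunt, were higher, at 2140.3, 12666 and 12104 (5.66-fold higher) and 1526, 3064 and 4470.0 (2.93-fold higher). Among 14 one-carbon genes 8 were lower and 2 higher (median -1.56). *GCV1* and *GCV2*, genes of the glycine cleavage complex, had 22077, 15043 and 3065 (7.20-fold lower) and 17328, 13369.5 and 2857 (6.07-fold lower), and *MIS1*, encoding a mitochondrial folate enzyme, had 2912, 581 and 626 (4.65-fold lower). *FDH1*, encoding formate dehydrogenase, had the opposite pattern, at 1399, 442 and 7011 (5.01-fold higher). Of the 16 plasma membrane amino acid permease genes that passed, 5 were lower and 4 higher (median -0.37), with *BAP2*, a branched-chain permease gene, at 21596, 14103 and 1366 (15.8-fold lower) and its relative *BAP3* at 232, 531 and 1531 (at least 5.60-fold higher). *AGP3* was also higher, at 214, 1141 and 1565 (at least 5.73-fold higher).

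Vitamin and purine genes followed the lower side. Among 7 *SNZ*, *SNO* and other pyridoxine genes, 4 were lower and none higher (median -1.90), with *SNO1* at 11612, 6603 and 1017 (11.4-fold lower) and *SNZ1*, its divergent partner in pyridoxine synthesis, at 31544, 27818 and 7575 (4.16-fold lower). Of 13 thiamine genes that passed, 6 were lower and 1 higher (median -0.80, and 0.27 in *met15Δ* over wild-type). *THI4*, encoding the enzyme of the thiazole ring, had 1765 on the wild-type array, 16495 on the *met15Δ* array and 602 on the *rtg3Δ met15Δ* array (2.93-fold lower), so the 2 mutants lay on either side of wild-type. *THI73*, a predicted transporter gene, had 14299.7, 14269.9 and 1609 (8.89-fold lower). Of 17 genes of purine synthesis and adenine salvage that passed, 12 were lower and 1 higher (median -1.29). *IMD3*, encoding inosine monophosphate dehydrogenase, had 14255, 7156 and 2179 (6.54-fold lower), and *ADE2*, a purine synthesis gene, 16019.6, 14093 and 3232 (4.96-fold lower).

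Most ribosome biogenesis and aminoacyl-tRNA synthetase genes were at least 2-fold lower. Most ribosomal protein genes, cytosolic and mitochondrial, lay within 2-fold of wild-type, with medians on opposite sides of 0. Of 66 ribosome biogenesis genes that passed, 51 were at least 2-fold lower and none higher (median -1.53, and -0.64 in *met15Δ* over wild-type). *RRP46*, encoding an exosome subunit, had 4966 on the wild-type array, 1647 on the *met15Δ* array and 618 on the *rtg3Δ met15Δ* array (8.03-fold lower), *RRP5*, encoding a processome factor, 8194, 3718 and 1244 (6.59-fold lower) and *NOP1*, encoding fibrillarin, 7377, 2537 and 1385 (5.33-fold lower). In each of these the *met15Δ* signal lay between the other 2. All 20 aminoacyl-tRNA synthetase genes had a ratio under 0 and 12 were at least 2-fold lower (median -1.51), led by *CDC60*, the leucyl-tRNA synthetase gene, at 13996, 6422 and 1310.4 (10.7-fold lower). Of 126 cytosolic ribosomal protein genes that passed, 122 had a ratio under 0, 40 were at least 2-fold lower and none higher (median -0.81). The other 86 lay within 2-fold. Many of these genes come as near-identical pairs, whose probe sets may share signal, and the ratios lay between -1.79 and 0.49. Of 27 RNA polymerase subunit genes that passed, 13 were lower and 1 higher (median -0.97), with *RPA49* and *RPA190*, genes of RNA polymerase I, at 2102, 1045 and 369.6 (5.69-fold lower) and 8831, 4673 and 2219 (3.98-fold lower). Of 66 mitochondrial ribosomal protein genes, 17 were higher, 1 was lower and 48 lay within 2-fold (median 0.62, 0.12 rescaled, and 0.01 in *met15Δ* over wild-type). Over all genes that passed, 20.7% were higher and 19.1% lower. *RSM28* had 1914, 1795 and 7182 (3.75-fold higher) and *MRPL8* 1312, 1772 and 4589 (3.50-fold higher), and *RSM22* was the lower one, at 2869, 654 and 717 (4.0-fold lower).

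Sulfur genes went in both directions, although the strain lacks the enzyme at which sulfate assimilation ends. Of 11 genes of sulfate uptake and reduction, 5 were higher and 1 lower (median 0.56, 0.06 rescaled, and 1.18 in *met15Δ* over wild-type). *MET3*, encoding ATP sulfurylase, had a signal of 183 on the wild-type array, 1657 on the *met15Δ* array and 1537 on the *rtg3Δ met15Δ* array (at least 5.63-fold higher), and *SUL2*, a sulfate permease gene, 1266, 3484 and 7405 (5.85-fold higher). *MET10*, encoding a subunit of sulfite reductase, had 2882, 10019.9 and 12241 (4.25-fold higher). *SSU1*, the sulfite exporter gene, was lower, at 13439, 7959 and 3441 (3.91-fold lower). The paralogous activators *MET31* and *MET32* were opposite, with *MET31* at 3696, 495 and 413 (8.94-fold lower) and *MET32* higher, as given above. *MET28*, encoding a cofactor of Met4, had 1778, 5364 and 5634 (3.17-fold higher) and *MET30*, encoding the ubiquitin ligase subunit that acts on Met4, 4634, 9252 and 11635 (2.51-fold higher).

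Downstream, the 2 S-adenosylmethionine synthetase genes also parted. *SAM1* had 18272 on the wild-type array, 7859 on the *met15Δ* array and 3881 on the *rtg3Δ met15Δ* array (4.71-fold lower) and *SAM2* 1528, 1575 and 5766 (3.77-fold higher). Of the 24 genes of methionine, cysteine and S-adenosylmethionine synthesis, 4 were higher and 6 lower (median -0.20). *MHT1*, encoding a methyltransferase that recycles methionine from its methylated form, had 486, 1205 and 2874 (5.91-fold higher) and *MMP1*, the permease gene for that compound, 1102, 6097 and 4268 (3.87-fold higher). Among the 14 glutathione genes that passed, 6 were higher and none lower (median 0.78, 0.28 rescaled). *GSH1*, encoding the first enzyme of glutathione synthesis, had 2929, 6620.3 and 13849 (4.73-fold higher), and *DUG1*, encoding a peptidase of glutathione breakdown, 747, 3189 and 4328 (5.79-fold higher).

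Phospholipid methylation consumes S-adenosylmethionine, and its methyltransferase genes *CHO2* and *OPI3* were higher in both mutants than in wild-type cells. Of 16 genes of phospholipid methylation and inositol synthesis that passed, 10 were higher and 3 lower (median 1.28, and -0.12 in *met15Δ* over wild-type). *CHO2*, the first methyltransferase gene, had 1505 on the wild-type array, 4253 on the *met15Δ* array and 17259 on the *rtg3Δ met15Δ* array (11.5-fold higher), and *OPI3*, the gene of the next steps, 4013, 12162 and 19261 (4.80-fold higher). *CHO1*, encoding phosphatidylserine synthase, had 361, 969 and 2504 (6.94-fold higher) and *INO1*, encoding inositol phosphate synthase, 1932, 1664 and 10268 (5.31-fold higher). The inositol permease gene *ITR1* had 2676, 2739 and 11996 (4.48-fold higher). In all 5 the *rtg3Δ met15Δ* signal was the highest of the 3 arrays. Of 16 fatty acid genes, 7 were higher and 1 lower (median 0.72, 0.23 rescaled), with *EHT1*, encoding an ester synthase, at 1151, 462 and 7295 (6.34-fold higher).

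Among cell wall genes, several mannoprotein and glucanase genes had their highest signal in *rtg3Δ met15Δ* cells, and the medians of both lists depend on the scaling. Of 21 mannoprotein genes that passed, 9 were higher and none lower (median 0.90, 0.40 rescaled, and 0.20 in *met15Δ* over wild-type). *YGP1*, encoding a secreted glycoprotein made on nutrient limitation, had 3593 on the wild-type array, 2925 on the *met15Δ* array and 24922 on the *rtg3Δ met15Δ* array (6.94-fold higher), *TIP1* 1928, 1629.8 and 13046 (6.77-fold higher) and *CWP2* 3736, 7986 and 21718 (5.81-fold higher). Of 21 glucanase and glucanosyltransferase genes that passed, 10 were higher and 2 lower (median 0.51, 0.02 rescaled, and -0.37 in *met15Δ* over wild-type), and 5 of the 21 passed through the *rtg3Δ met15Δ* array and not the wild-type array. *NCA3* had 4407, 5354 and 24332 (5.52-fold higher) and *SIM1* 342, 901 and 2435 (7.11-fold higher), both of the SUN family, and *GAS3* was lower in both mutants, at 10727, 300.3 and 1219.6 (8.80-fold lower). *CTS1*, encoding the chitinase that separates daughter from mother, had 1179, 1479 and 8744 (7.42-fold higher), and *YPS6*, a yapsin protease gene, 594, 1430.3 and 4122 (6.94-fold higher). *SCW11* and *DSE2*, also genes of daughter cell separation, had 153, 259.6 and 708 (at least 2.59-fold higher) and 167, 179.9 and 694 (at least 2.54-fold higher).

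Of 21 cyclins and cell cycle inhibitors on the array, 13 passed, 8 of them through the *rtg3Δ met15Δ* array and not the wild-type array, so that passing already required a difference for these 8. Higher by 2-fold or more were 10 of the 13, and none was lower. The median of the 13 was 2.04 (0.84 in *met15Δ* over wild-type), and 0.74 over those with a signal of at least 500 on both arrays. The other 8 of the 21 lay under the filter on both arrays, and the median over all 21 was 1.52. Beside *CLN1* and *ASH1*, *CLB1*, a mitotic cyclin gene, had 91.9 on the wild-type array, 165 on the *met15Δ* array and 867 on the *rtg3Δ met15Δ* array (at least 3.17-fold higher), *CLB5*, an S phase cyclin gene, 116, 317 and 586 (at least 2.14-fold higher) and *CLN3*, the first G1 cyclin gene, 119, 262 and 629.6 (at least 2.30-fold higher). The wild-type signals of *CLN1* and of these 3 cyclin genes were at background. The 10 histone genes, by comparison, had 2 higher, near the share of all genes that passed (20.7%), and none lower (median 0.71, 0.21 rescaled). Among them *HTB2* had 1084, 2228 and 2425 (2.24-fold higher). *DIF1*, encoding a regulator of ribonucleotide reductase, was lower, at 5302, 317 and 859.9 (6.17-fold lower). Whether more cells were dividing in the *rtg3Δ met15Δ* culture was not measured.

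Iron uptake genes, the regulon of the activator Aft1, included more higher than lower members in *rtg3Δ met15Δ* cells. Of 27 that passed, 13 were higher and 4 lower (median 0.95, 0.46 rescaled, and 0.03 in *met15Δ* over wild-type). *ARN1* and *ARN2*, genes of siderophore transporters, had 607 on the wild-type array, 1923 on the *met15Δ* array and 4816 on the *rtg3Δ met15Δ* array (7.93-fold higher) and 566, 1768 and 3573 (6.31-fold higher). *FET3* and *FTR1*, genes of the oxidase and permease of the plasma membrane, had 1105, 3048 and 8019.7 (7.26-fold higher) and 379, 3030.3 and 2202 (5.80-fold higher). *TIS11*, encoding a protein that degrades transcripts of iron-using enzymes, had 1406, 4449.6 and 6949 (4.94-fold higher), and *ISU2*, an iron-sulfur scaffold gene, was lower, at 8734, 2343 and 1859 (4.70-fold lower).

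Antioxidant and desiccation genes were higher, and the chaperone and turnover lists leaned higher by an amount that depends on the scaling. Of 13 superoxide dismutase, catalase and peroxidase genes that passed, 8 were higher and 1 lower (median 1.35, and 1.04 in *met15Δ* over wild-type). *CTT1*, encoding cytoplasmic catalase, had 1625 on the wild-type array, 11439 on the *met15Δ* array and 10772 on the *rtg3Δ met15Δ* array (6.63-fold higher) and *SOD2*, encoding the mitochondrial superoxide dismutase, 2516, 14840.3 and 14559.6 (5.79-fold higher). *GPX1*, a glutathione peroxidase gene, had 3256, 8555 and 17275 (5.31-fold higher). Of 11 hydrophilin, desiccation and aquaporin genes, 8 were higher and none lower (median 1.19), with *GRE1* at 2968, 31382 and 13329.9 (4.49-fold higher) and the aquaporin gene *AQY1* at 235, 3677 and 972 (at least 3.56-fold higher). Both of these were above wild-type and under *met15Δ* cells. Of 14 small heat shock, Hsp90 and disaggregase genes all had ratios above 0 as deposited and 4 were at least 2-fold higher (median 0.79, 0.30 rescaled), with *HSP31* at 2068, 4259.8 and 12755 (6.17-fold higher). The Hsp70 genes were mixed, with *SSE2* at 4639.9, 9241 and 17805 (3.84-fold higher) and *SSB2*, whose product works on the ribosome, at 22801, 13103 and 6814 (3.35-fold lower).

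Of 37 proteasome genes, 9 were higher, near the share of all genes that passed (20.7%), and none lower (19.1% of all genes). Their median was 0.69 (0.19 rescaled), and 35 had a ratio above 0 with the deposited signals. *PRE7*, encoding a core subunit, had 2064 on the wild-type array, 3614 on the *met15Δ* array and 5478 on the *rtg3Δ met15Δ* array (2.65-fold higher), and *RPN12*, encoding a lid subunit, 1724, 4108 and 4329 (2.51-fold higher). Of 29 autophagy genes that passed, 11 were higher and none lower (median 0.88, 0.38 rescaled), among them *ATG19*, encoding a cargo receptor, at 349, 1892 and 2359 (6.77-fold higher) and *ATG40*, encoding a receptor of the endoplasmic reticulum, at 1839, 2185 and 6769 (3.68-fold higher). Of 15 vacuolar hydrolase and inhibitor genes, 6 were higher and none lower (median 0.91, 0.41 rescaled). *TFS1* and *PBI2*, which encode inhibitors of vacuolar proteases, had 2292, 11142 and 13017 (5.68-fold higher) and 2384, 10125 and 11104 (4.66-fold higher).

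Spore genes served as a check for other cell states. Of 27 spore wall and late sporulation genes, 19 were under the filter on both arrays, and the 8 that passed had 1 higher and 5 lower (median -1.19). The median over all 27, without the filter, was 0.43. *RRT8*, encoding a lipid droplet protein of spore wall assembly, had 2354 on the wild-type array, 4829 on the *met15Δ* array and 11655 on the *rtg3Δ met15Δ* array (4.95-fold higher), and *MPC54*, a gene of the meiotic spindle pole, 2584, 547 and 559 (4.62-fold lower). The meiosis regulators *IME1* and *IME2* had 2279.6, 2277 and 1579 and 650.3, 399 and 947, within 2-fold of wild-type.

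Over the 72 lists, which hold 1275 of the 4724 genes that passed, 25 had a median of at least 0.50 in *rtg3Δ met15Δ* over wild-type, 18 had a median of -0.50 or less and 29 lay between. The choice of lists was made with earlier results of these data known, so these counts describe the lists and not the genome. The upper count depends on the scaling: 8 of the 25 kept a median of at least 0.50 when each array was divided by the median of all its probe sets, 16 after division by the bacterial controls and 24 after quantile normalization, while the 18 lower lists stayed at -0.50 or less under each. Among the other 29 lists, 18 medians changed sign under at least 1 of the 4 scalings.

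**Figure D5:**
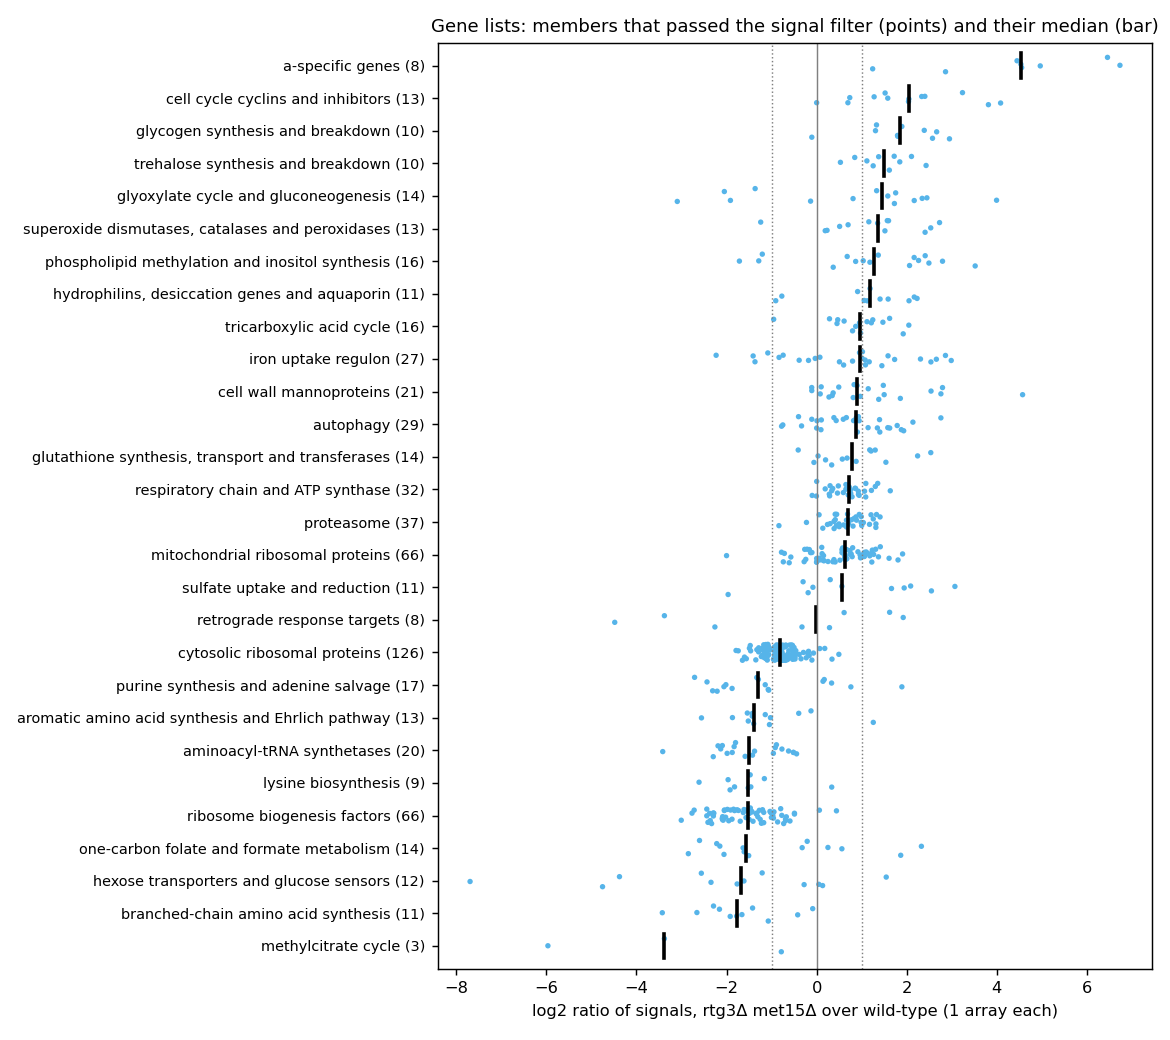
Log2 ratio of *rtg3Δ met15Δ* over wild-type signals (x axis) for the members of 28 gene lists that passed the signal filter, 1 point per gene, with the number of genes in parentheses and a black bar at the list's median. The solid grey line marks equal signals and the dotted lines 2-fold differences. The a-specific genes lie farthest right (median 4.54) and the methylcitrate cycle farthest left (median -3.38), and the retrograde targets spread to both sides of 0 (median -0.02).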

How the data were processed

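Cells of the 3 genotypes were profiled with 1 array each, and the groups were taken from the submitters' labels. The authors background-corrected the scanned intensity values and summarized them with RMA in RMAExpress, and the deposited values are linear intensity signals, 1 for each probe set. Which normalization was set in RMAExpress is not given in the sources used here. Among the 4762 probe sets kept, 74 (1.55%) had exactly equal deposited signals in wild-type and *rtg3Δ met15Δ* cells, so a ratio of 0 can arise from the summary. All 3 sample columns were used, and 0 were left out.

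Names came from the platform annotation, with genes placed in *S. cerevisiae* through a RefSeq gene table (assembly R64), used for names and gene order. Where a gene had several probe sets, their log2 signals were averaged. The 3470 unnamed probe sets and 213 controls entered no ratio. Ratios were computed with python 3.11.15, numpy 2.4.6 and pandas 2.3.3 and drawn with matplotlib 3.10.9. The counting of differences was tested on simulated data. With 1 array per genotype no test was made, and the spread between cultures is unknown. Signal over background limits the folds that dim genes can show.

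Named in the text were the 15 highest and 15 lowest genes, every member of the retrograde, deleted and mating-type lists, and up to 6 members of each other list by size of ratio. The genes beside the deletions, those at the filter and the pairs of paralogs stand outside that rule. The members and the 72 lists were chosen with earlier results of these data known. After values had been seen, a gene counted under the wrong list was taken out (MFA1 from the haploid-specific genes) and genes that a name pattern had caught wrongly were removed from the ribosome biogenesis and RNA polymerase lists. The alternatives were 4 other scalings, 100 added to each signal, a floor at the other species' signals, no shared probe sets, other filters and other folds. A planned search for promoter motifs was not run.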

Additional observations from a re-analysis of the deposited data

Results flagged for a closer look

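The array also holds 3470 probe sets with no gene name, which entered none of the comparisons. Of these, 181 had a signal of at least 500 in wild-type or *rtg3Δ met15Δ* cells, above the highest signals of the other species' probe sets (273 and 289), and they were noted because they carry signal outside the named genes. Among the 181, 45 were higher by 2-fold or more in *rtg3Δ met15Δ* cells and 25 were lower by 2-fold or more, and the median log2 ratio over wild-type was 0.34. Over the *S. cerevisiae* probe sets kept, 20.7% were higher and 19.1% lower, with a median of 0.03. What these probe sets measure was not tested.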

How the results depend on the processing

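The counts of 988 higher and 909 lower probe sets and the SD of 1.27 stayed within 1.5 times (counts) or 10% (SD) of these values under all alternatives run except the following. Dividing each array by the median of all its probe sets gave 539 higher and 1511 lower. Requiring a signal of at least 500 on both arrays gave 643 higher and an SD of 1.12. A fold of at least 3 gave 473 higher and 443 lower, and one of at least 1.5 gave 1518 and 1406, by construction. Scaling to the *S. cerevisiae* median or quantile normalization moved the median ratio by only 0.05 and 0.03. Of 792 list medians under the alternatives, 526 stayed within 0.10 of the value given and 263 moved by more. Of the 25 lists with a median of at least 0.50, 8 stayed there after division by the median of all probe sets. Among lists with a median at least 0.50 from 0, 3 medians changed sign, all under other filters: the pheromone response genes, at -0.025 with a signal of at least 1000 on 1 array and -0.025 with at least 500 on both, and the spore wall genes, at 0.43 with no filter. These alternatives keep other members, and the cause was not tested further. No paired analysis was possible because each genotype has 1 array, and for the same reason no array could be left out. Low signals have only bounds, and the spread between cultures is unknown.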

Other observations

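Several gene groups that the comparison above does not describe had medians near 0 with large differences among their members. Over all genes that passed, 20.7% were higher by 2-fold or more and 19.1% lower, which is the background for the counts here. In the phosphate regulon, 4 of 22 genes that passed were higher by 2-fold or more in *rtg3Δ met15Δ* than in wild-type cells and 7 were lower (median log2 ratio -0.39). *PHO89*, encoding the sodium and phosphate cotransporter, had a signal of 22229.8 on the wild-type array, 25059.9 on the *met15Δ* array and 1879 on the *rtg3Δ met15Δ* array (11.8-fold lower), and *GDE1*, encoding a phosphodiesterase, 5269.9, 2245 and 870.2 (6.06-fold lower). *PHO5*, encoding the secreted acid phosphatase, lay the other way, at 123, 896 and 972 (at least 3.56-fold higher), as did *PHO85*, a cyclin-dependent kinase gene, at 1184, 1793 and 5323 (4.49-fold higher). Of 18 NAD synthesis genes, 4 were higher and 5 lower (median -0.27). *BNA2*, encoding the first enzyme of synthesis from tryptophan, had 19215, 9984 and 3236 (5.94-fold lower), and *PNC1*, encoding the nicotinamidase, 4382, 8594 and 13503 (3.08-fold higher).

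Of 21 genes of TOR, Sch9, Rim15 and protein kinase A signaling that passed, 2 were higher and 4 lower (median -0.23). The lower ones were near the share of all genes that passed (19.1%), and the higher ones under it (20.7%). *TPK2*, encoding a catalytic subunit of protein kinase A, had 1623 on the wild-type array, 5145 on the *met15Δ* array and 7936 on the *rtg3Δ met15Δ* array (4.89-fold higher), and *BCY1*, encoding its inhibitory subunit, 1859, 7541 and 7845 (4.22-fold higher). *GPR1*, encoding the glucose receptor upstream, had 12156, 6313 and 2283 (5.32-fold lower), *PDE2*, encoding a cAMP phosphodiesterase, 8972, 2429 and 1629.9 (5.50-fold lower) and *KOG1*, a TOR complex gene, 4207, 1236 and 818 (5.15-fold lower). None of the 11 sirtuin and silencing genes that passed was at least 2-fold apart (median 0.00). Of 28 ergosterol genes that passed, 8 were higher and 3 lower (median 0.40), with *ERG3*, a sterol desaturase gene, at 987, 1885 and 6159 (6.24-fold higher) and *ARE1*, encoding a sterol ester synthase, at 2909, 1124 and 657 (4.43-fold lower). Of 29 peroxisome and fatty acid oxidation genes that passed, 7 were higher and 4 lower (median 0.17), with *PEX2*, a peroxisome assembly gene, at 1857, 2487 and 6663 (3.59-fold higher) and *POX1*, the acyl-CoA oxidase gene, at 4320.3, 1622 and 1181 (3.66-fold lower). Of 19 thioredoxin, glutaredoxin and redox regulator genes, 5 were higher and 3 lower (median 0.27). The median was -0.27 over those with a signal of at least 500 on both arrays. It was -0.23 after division by the median of all probe sets. Of the 19, 3 passed through the *rtg3Δ met15Δ* array and not the wild-type array, among them *GRX8* at 159, 1298 and 1273 (at least 4.66-fold higher). *OYE2* had 16792, 4829.6 and 6621 (2.54-fold lower).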
